A study of Mus musculus with 24 samples.

Results

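The genes of glycolysis and of the hypoxia response were followed across 24 messenger RNA libraries of mouse dendritic cells grown from bone marrow. The list held 33 genes, taken by symbol from the 55414 gene lines of the count files. It comprised 3 glucose transporters, 16 glycolytic enzymes, 2 PFKFB enzymes that set the level of an activator of phosphofructokinase, 3 genes of pyruvate and lactate handling, 3 genes of the HIF subunit and its oxygen sensors, and 6 other targets of HIF. All 33 passed the filter on low counts in every model fitted. FL cultures were grown with GM-CSF (20 ng/ml) and FLT3L (200 ng/ml) to day 16, and the series calls them cDC1. They were treated for 24 h with 0.05 µM AZD5582 or with DMSO, or harvested untreated at t0. GM cultures were grown with GM-CSF alone (20 ng/ml), the series calls them moDC, and their untreated t0 libraries are of day 8. They were treated for 24 h with 0.1, 0.5 or 1 µM AZD5582 or with DMSO. Each of the 8 groups held 3 libraries, which the series describes as biological replicates. The marrow came from C57BL/6JRj mice that were wild type or carried Cas9-EGFP, and the genotype behind each library is not given. The GM libraries share a culture number, 105, whereas the FL libraries are of cultures 91, 94 and 95. Where separate animals are not stated, p-values measure only the spread between these libraries.

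Glycolysis splits glucose into pyruvate in the cytosol, and lactate dehydrogenase with a monocarboxylate transporter disposes of the pyruvate that mitochondria do not take up. The transcription factor HIF, whose oxygen-sensitive alpha subunit is marked for destruction by prolyl hydroxylases, switches on most of these genes when oxygen is low, and also in stimulated myeloid cells at normal oxygen. Dendritic cells are known to raise glycolysis when they are activated. AZD5582 blocks the IAPs, a family of proteins that restrain cell death, and such agents deplete cellular IAPs and switch on non-canonical NF-kB signalling.

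Libraries held 27012555 to 85820558 counts on genes, and levels are given as CPM, a gene's counts relative to its library's scaled total, over all 24 libraries. Each fit was scaled over its own libraries, so a small change can differ in sign from the CPM. The 9 cDC1 markers summed to 2838 to 5913 CPM in FL cultures and 1303 to 1453 CPM in GM cultures at t0, and Xcr1, which defines cDC1, averaged 212 CPM in FL and 0.139 CPM in GM cultures. After 24 h Xcr1 averaged 2.07 CPM in FL cultures at 0.05 µM, against 16.6 CPM in FL DMSO. The 9 cDC1 markers together summed to 2069 to 4003 CPM at 0.05 µM, against 1488 to 1952 CPM in FL DMSO. Irf8 (2323 against 879 CPM) and Batf3 (123 against 102 CPM) averaged higher at 0.05 µM, and the rest of the list lower. The 12 macrophage markers summed to 791 to 964 CPM in FL cultures and to 19360.0 to 24790.0 CPM in GM cultures at t0. By group means, Lyz2 alone made up most of the macrophage sum in every group (591 CPM in FL t0 and 18570 CPM in GM t0). Culture 91 stood apart from cultures 94 and 95 after 24 h, in DMSO and with AZD5582, and counts of called genes in FL cultures after 24 h are given with and without it. Mitochondrially encoded genes took 8.04% of the gene counts in replicate 1 of GM 1 µM, against 1.38% to 4.90% in the others. Because the RNA is bulk, fewer cells of a type and less RNA per cell cannot be told apart.

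Summed over the 33 genes, the level was highest in GM cultures that had not seen AZD5582. The sum was 8922 to 12589 CPM in GM DMSO and 10567 to 13915 CPM in GM t0, with no other group above 8661 CPM. The 16 glycolytic enzymes made up most of it. They summed to 3021 to 3409 CPM in FL cultures at 0.05 µM, 2915 to 3686 CPM in FL DMSO and 4737 to 5241 CPM in FL t0. In GM cultures they summed to 6306 to 9206 CPM in DMSO, 4581 to 5868 CPM at 0.1 µM, 3615 to 4177 CPM at 0.5 µM and 3754 to 4663 CPM at 1 µM. The 2 PFKFB enzymes, mostly Pfkfb3 after 24 h, went the other way and summed to 79.9 to 88.3 CPM in GM t0, 537 to 709 CPM in GM DMSO and 1200.3 to 1731 CPM at 1 µM.

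**Figure D1:**
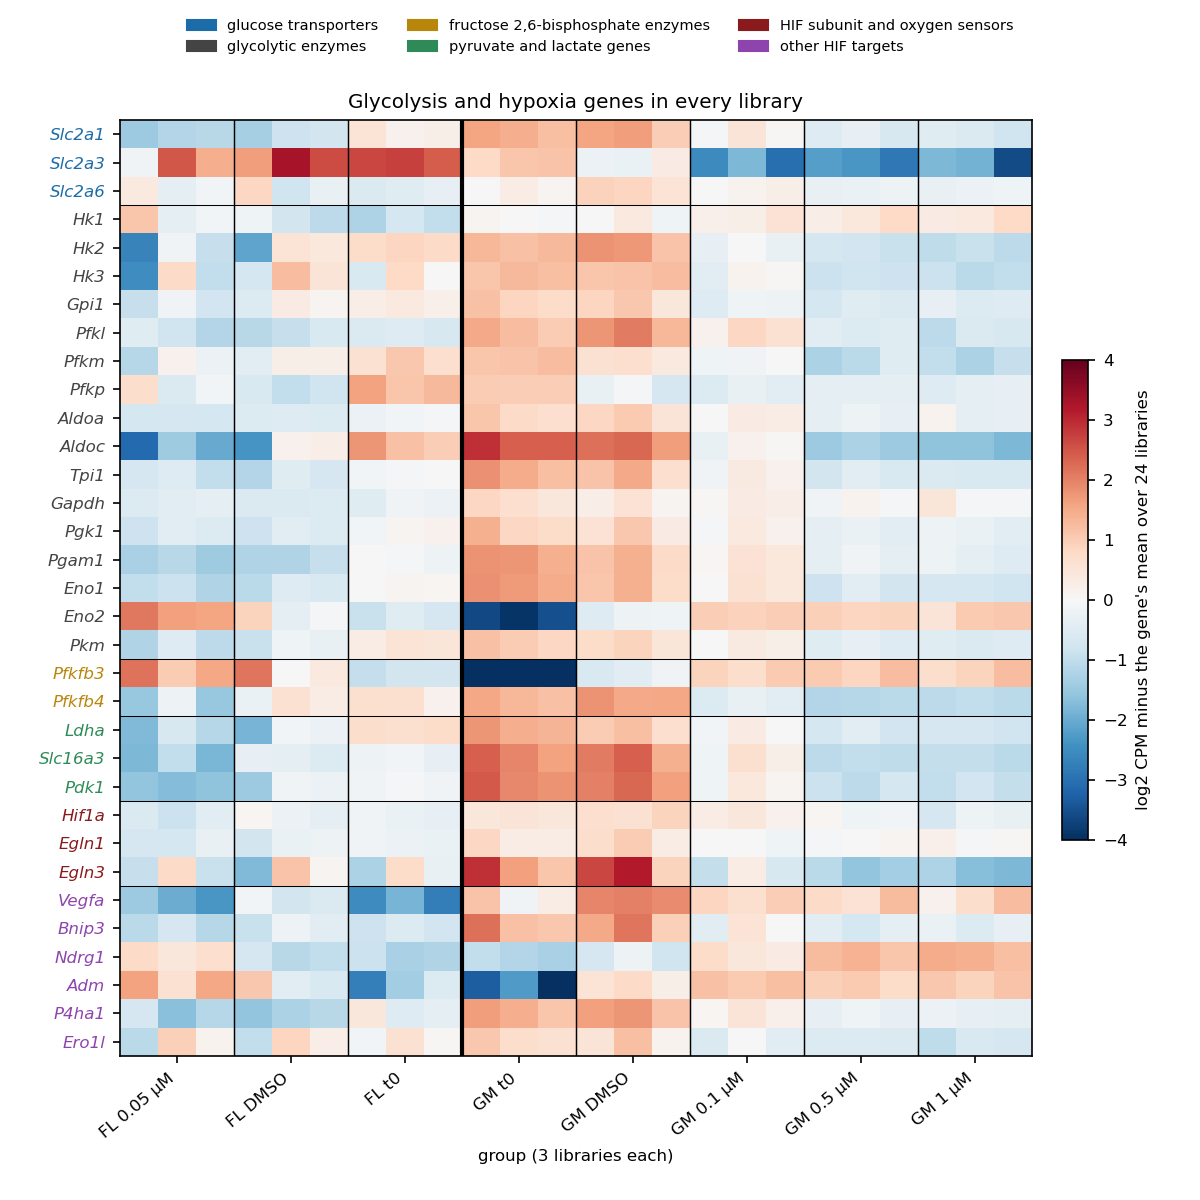
Level of each of the 33 genes in every library, as log2 CPM minus the gene's mean over the 24 libraries (colour, red high and blue low, scale ending at 4 either way), with 3 libraries per group side by side and gene names coloured by role. Most rows are red in GM t0 and GM DMSO and pale blue at 0.5 and 1 µM, while Eno2 and Pfkfb3 are deepest blue in GM t0, where Pfkfb3 lies between 40.9 and 44.8 CPM.

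Most of these genes were lower in GM cultures treated with AZD5582. At 1 µM, 26 of the 33 fell against DMSO and 4 rose (edgeR quasi-likelihood test, adjusted p under 0.05 over all genes), where 28.2% of all tested genes fell and 26.9% rose. The largest falls were those of the oxygen sensor Egln3 (-4.01 in log2), the aldolase Aldoc (-3.65) and the lactate exporter Slc16a3 (-2.90). The genes that rose were Ndrg1 (2.02), Pfkfb3 (1.44), Eno2 (1.30) and Hk1 (0.54). Of the 26 that fell, 22 fell by at least 2-fold, and 3 of the 4 rises reached that size. The median change of the 33 genes was -1.38 in log2 at 1 µM, against -0.01 over all genes tested. At 0.1 µM 25 fell and 3 rose (20.3% and 19.9% of all genes), with a median of -0.82. The calls of Aldoa, Pfkm and Pkm at 0.1 µM were lost without single libraries (highest adjusted p = 0.0767, 0.0608 and 0.0517), and that of Hif1a is given with its values. At 0.5 µM 26 fell and 4 rose (27.7% and 25.8% of all genes), with a median of -1.31. The 3 doses share their DMSO libraries.

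At 1 µM both the enzyme side and the HIF side held mostly genes that fell. Of the 24 transporters, enzymes and pyruvate genes, 19 fell and 3 rose, with a median log2 change of -1.55. Of the 9 genes of the HIF subunit, its sensors and its other targets, 7 fell and 1 rose, with a median of -1.09. Some marker lists fell with them and others did not. Of 12 macrophage markers 11 fell, and their sum was 3965 to 5209 CPM at 1 µM against 29010.0 to 35480.0 CPM in DMSO. Most of that sum was Lyz2, with means of 4181 and 26650 CPM. All 11 neutrophil markers fell, with sums of 36.4 to 80.9 CPM at 1 µM against 773 to 954 CPM in DMSO, and Elane was at 0 in every library at 1 µM. Of 15 cell cycle markers 13 fell, with sums of 257 to 281 CPM at 1 µM against 373 to 468 CPM in DMSO. The 9 cDC1 markers instead summed to 2359 to 2489 CPM at 1 µM against 1098 to 1312 CPM in DMSO. Most of that was Irf8, with means of 1984 and 655 CPM. The 7 lymphocyte markers, all scarce, summed to 11.4 to 13.5 CPM against 3.11 to 5.30 CPM. Sums of the dendritic cell markers and of the mast cell and basophil markers overlapped between the groups. The dendritic cell list was mixed, however. Ccr7 (means of 6384 CPM at 1 µM and 1720 CPM in DMSO), Zbtb46 (197 and 68.4 CPM) and Flt3 (181 and 96.5 CPM) averaged higher at 1 µM. Itgax (160 and 407 CPM), H2-Ab1 (875 and 2398 CPM), H2-Aa and Cd74 averaged lower. The part of any of these lists in the fall of the glycolysis and hypoxia genes was not tested.

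**Figure D2:**
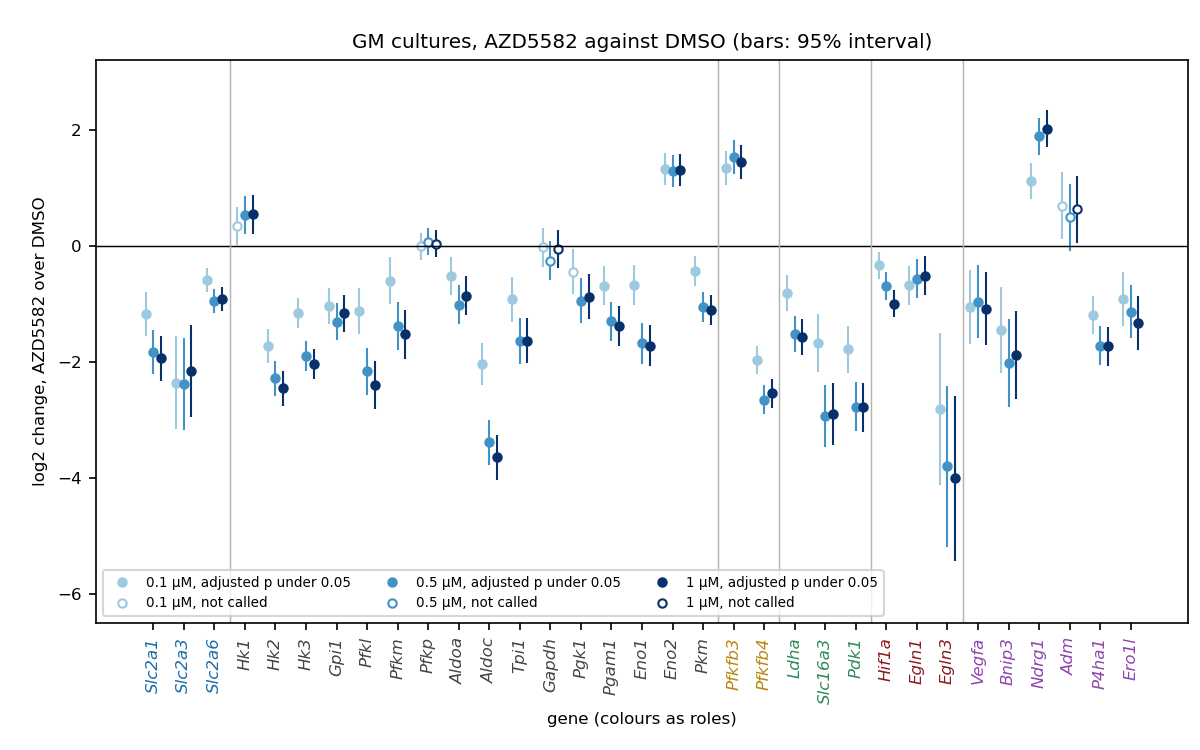
Log2 change of each gene in GM cultures at 0.1, 0.5 and 1 µM AZD5582 over DMSO (points, light to dark by dose, with 95% intervals), filled where the adjusted p is under 0.05 and open where it is not. At 1 µM, 26 filled points lie below 0 and 4 above, and Adm, Gapdh and Pfkp are open at each dose.

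The regions just upstream of these genes were searched for the core of the hypoxia response element, spelled ACGTG or GCGTG and read on both strands, in RefSeq's promoter entries (GRCm38.p6, 250 bases before an annotated start). The palindrome CACGTG, which is also an E-box, holds ACGTG on both strands and was counted as 1 run. Entries were found for 31 of the 33 genes. Those without one were Ndrg1, which had the largest rise at 1 µM, and Slc2a3, which fell. Of their 45 entries, 36 held at least 1 match (80.0%), against 38.6% of the 32851 entries of all genes. Entries with 3 or more runs numbered 7 of 45, against 4.56% of the entries of all genes. A match was present in 23 of the 25 genes with an entry that fell at 1 µM, in 2 of the 3 that rose and in all 3 that were not called. The list was itself made of glycolysis genes and HIF targets, and entries of the same gene can overlap and share matches, as for Eno1 and Aldoa. The contrast with all genes was not tested and is no finding about these libraries. A match is a description of letters and not a bound site.

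The entries of 3 genes that fell and 2 that rose are shown for comparison, each 5′ to 3′ on the gene's strand with the matches in capitals. For a gene with several entries, the one with most runs is printed. They are Ldha (chr7:46845554-46845803, plus strand, 3 runs), Slc16a3 (chr11:120948817-120949066, plus strand, 2 runs), Bnip3 (chr7:138909507-138909756, minus strand, 4 runs), Pfkfb3 (chr2:11502091-11502340, minus strand, 2 runs) and Eno2 (chr6:124769674-124769923, minus strand, 0 runs). Ldha and Bnip3, which fell, and Pfkfb3, which rose, each hold a CACGTG run.
Ldha: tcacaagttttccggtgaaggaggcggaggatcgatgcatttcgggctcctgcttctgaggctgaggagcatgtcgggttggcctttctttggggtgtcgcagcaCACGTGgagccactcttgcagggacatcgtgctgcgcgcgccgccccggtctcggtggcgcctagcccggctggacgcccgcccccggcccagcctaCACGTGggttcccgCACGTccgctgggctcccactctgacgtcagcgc
Slc16a3: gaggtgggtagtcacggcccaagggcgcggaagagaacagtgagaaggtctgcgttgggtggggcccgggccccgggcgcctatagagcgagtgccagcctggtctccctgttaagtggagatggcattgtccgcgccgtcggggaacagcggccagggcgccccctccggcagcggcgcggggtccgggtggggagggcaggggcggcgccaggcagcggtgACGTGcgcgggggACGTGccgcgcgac
Bnip3: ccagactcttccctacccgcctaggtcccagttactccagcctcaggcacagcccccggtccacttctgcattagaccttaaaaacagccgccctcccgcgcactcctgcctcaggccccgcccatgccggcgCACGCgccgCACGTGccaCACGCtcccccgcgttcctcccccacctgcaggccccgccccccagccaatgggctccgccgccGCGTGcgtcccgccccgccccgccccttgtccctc
Pfkfb3: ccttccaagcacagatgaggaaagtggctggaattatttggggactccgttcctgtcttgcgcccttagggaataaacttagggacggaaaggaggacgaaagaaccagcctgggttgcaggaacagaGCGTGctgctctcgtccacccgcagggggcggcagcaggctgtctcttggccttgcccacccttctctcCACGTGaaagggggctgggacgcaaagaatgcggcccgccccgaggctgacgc
Eno2: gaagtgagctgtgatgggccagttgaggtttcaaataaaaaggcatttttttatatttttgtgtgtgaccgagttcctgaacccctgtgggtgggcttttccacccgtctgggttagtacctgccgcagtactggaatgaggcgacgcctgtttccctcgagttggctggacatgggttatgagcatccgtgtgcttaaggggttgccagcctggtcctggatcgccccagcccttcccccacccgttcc

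All 3 glucose transporters fell in GM cultures at each dose. Slc2a1, which encodes the main glucose transporter of most cells, had 163, 172 and 107 CPM in DMSO, 52.7, 77.4 and 55.9 CPM at 0.1 µM, 37.96, 43.4 and 34.5 CPM at 0.5 µM and 38.9, 36.3 and 31.1 CPM at 1 µM. Each treated library lay below each DMSO library, and the log2 change at 1 µM was -1.95 ± 0.18 (SE, adjusted p = 9.25e-08). Slc2a3, a high-affinity glucose transporter, was low throughout and had 3.32, 3.23 and 4.91 CPM in DMSO, 0.631, 1.09 and 0.449 CPM at 0.1 µM, 0.817, 0.740 and 0.510 CPM at 0.5 µM and 1.09, 1.02 and 0.289 CPM at 1 µM. Its change was -2.16 ± 0.38 (SE, adjusted p = 9.76e-05) at 1 µM, with no overlap of the groups. Slc2a6, another member of the family, changed less, by -0.92 ± 0.10 (SE, adjusted p = 3.30e-07).

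The 3 hexokinases, which trap glucose by phosphorylation, divided. Hk2, the inducible form, had 118, 113 and 74.6 CPM in DMSO, 27.2, 33.5 and 27.4 CPM at 0.1 µM, 20.6, 20.04 and 18.03 CPM at 0.5 µM and 16.8, 18.3 and 16.4 CPM at 1 µM. Hk3, typical of myeloid cells, had 82.7, 84.3 and 89.1 CPM in DMSO, 27.8, 42.1 and 38.9 CPM at 0.1 µM, 21.01, 21.9 and 21.4 CPM at 0.5 µM and 20.9, 17.8 and 19.03 CPM at 1 µM. For both, the DMSO libraries lay above every treated library, and at 1 µM Hk2 changed by -2.46 ± 0.14 (SE, adjusted p = 1.44e-10) and Hk3 by -2.04 ± 0.12 (SE, adjusted p = 2.35e-10). Hk1, the widely expressed form, instead changed by 0.54 ± 0.16 (SE, adjusted p = 0.0075) at 1 µM and 0.52 ± 0.16 (SE, adjusted p = 0.00928) at 0.5 µM, calls that were lost without replicate 3 at 1 µM (adjusted p = 0.0510) and, at 0.5 µM, without its replicate 3 (adjusted p = 0.0707) or replicate 3 of DMSO (adjusted p = 0.0503).

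**Figure D3:**
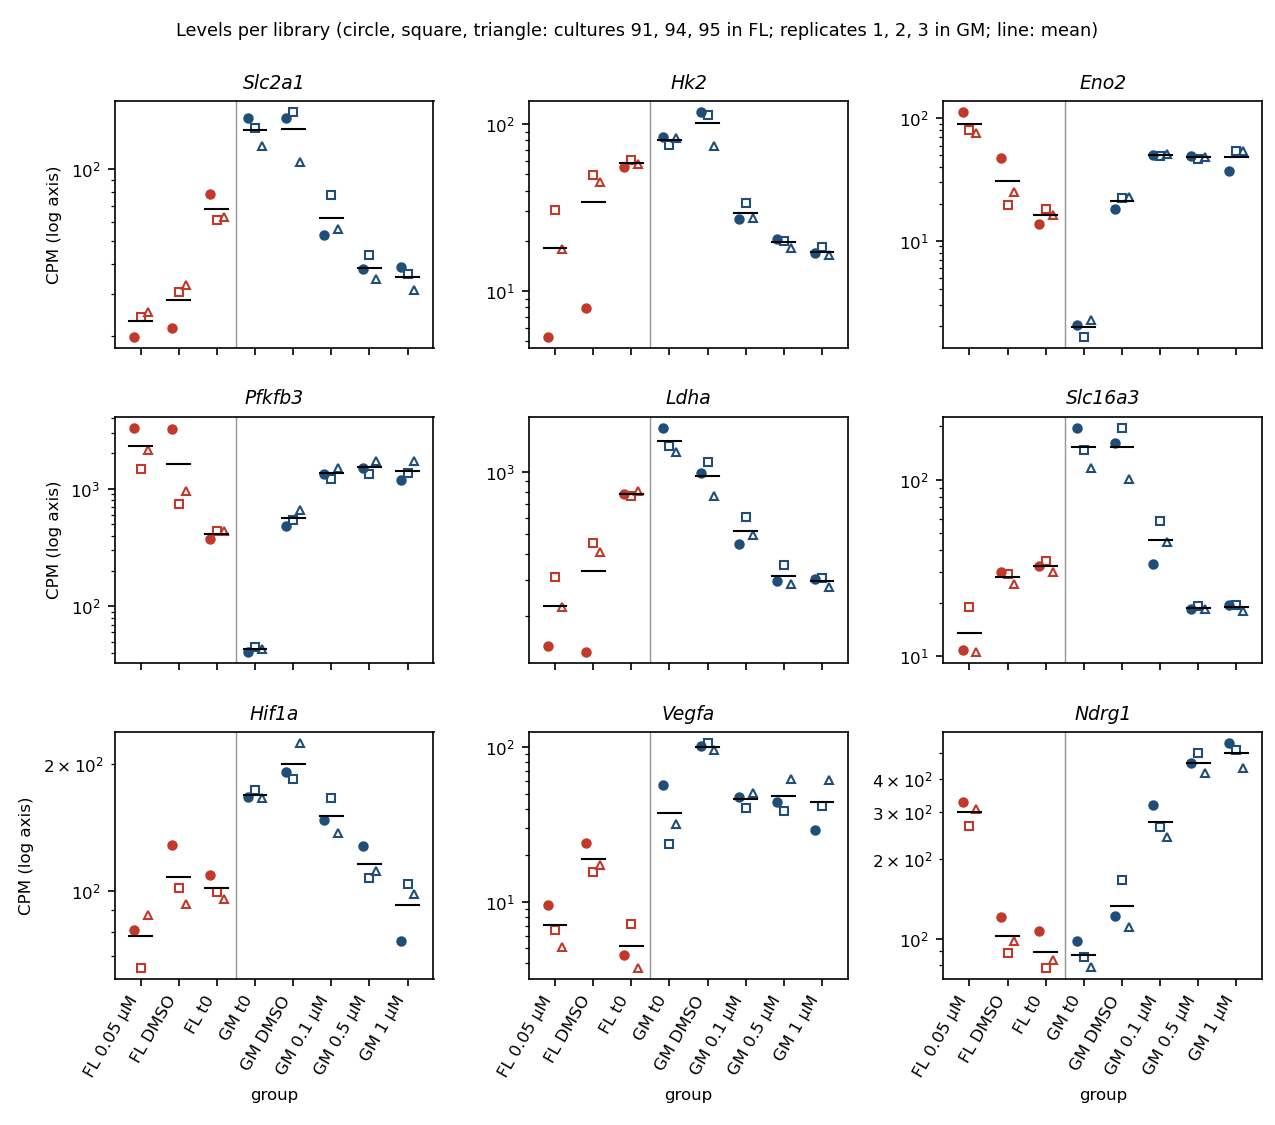
CPM of 9 genes in every library (log axis), FL groups in red and GM groups in blue, with a line at each group's mean. In GM cultures Slc2a1, Hk2, Ldha, Slc16a3 and Hif1a step down with AZD5582, Ndrg1 steps up, and Eno2 and Pfkfb3 climb between t0 and DMSO and again with AZD5582; in FL cultures culture 91 (circles) lies apart after 24 h, as for Hk2 at 7.86 CPM in DMSO.

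Further down the pathway, the phosphofructokinases, which commit sugar to glycolysis, also divided. Pfkl, the liver-type form, fell to 25.1, 34.3 and 32.7 CPM at 1 µM, against 175, 219 and 128 CPM in DMSO, a change of -2.40 ± 0.19 (SE, adjusted p = 2.14e-08). Pfkm, the muscle-type form, was scarce and changed by -1.53 ± 0.20 (SE, adjusted p = 3.86e-06). Pfkp, the platelet-type form, had 109.9, 122 and 125 CPM at 1 µM, against 128, 148 and 98.8 CPM in DMSO, and the groups overlapped. Its difference was 0.03 ± 0.11 (SE, adjusted p = 0.812), with a 95% interval of -0.20 to 0.27. That fit was scaled over the GM libraries alone, whereas the mean CPM was slightly lower at 1 µM (119 against 125 CPM).

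Aldoc, the less abundant of the 2 aldolases, had 122, 129 and 82.4 CPM in DMSO, 21.2, 29.1 and 26.8 CPM at 0.1 µM, 9.40, 10.7 and 9.49 CPM at 0.5 µM and 8.53, 8.59 and 7.47 CPM at 1 µM. Its groups stood in order of dose without overlap, and the change at 1 µM was -3.65 ± 0.19 (SE, adjusted p = 5.14e-11). Aldoa, the main aldolase, changed by -0.87 ± 0.16 (SE, adjusted p = 0.000145). The isomerases Gpi1 and Tpi1 changed by -1.17 ± 0.15 (SE, adjusted p = 2.42e-06) and -1.64 ± 0.19 (SE, adjusted p = 9.90e-07). Among the enzymes of the lower pathway, the phosphoglycerate kinase Pgk1 changed by -0.88 ± 0.18 (SE, adjusted p = 0.000627), the mutase Pgam1 by -1.38 ± 0.16 (SE, adjusted p = 1.19e-06), the enolase Eno1 by -1.73 ± 0.17 (SE, adjusted p = 1.00e-07) and the pyruvate kinase Pkm by -1.12 ± 0.12 (SE, adjusted p = 3.84e-07).

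Gapdh, the dehydrogenase at the centre of the pathway and a common reference gene, was not called at any dose. It had 1523, 1896 and 1385 CPM in DMSO, 1328, 1615 and 1537 CPM at 0.1 µM, 1146, 1398 and 1219 CPM at 0.5 µM and 1791, 1237 and 1234 CPM at 1 µM. Each treated group overlapped the DMSO group, and at 1 µM the difference was -0.06 ± 0.16 (SE, adjusted p = 0.775), with a 95% interval of -0.39 to 0.28. Gapdh and several of these enzymes have processed pseudogenes or near-identical copies, and reads that map to several places may be missing from their counts.

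Eno2, the neuron-type enolase, rose while Eno1 fell. Eno2 had 18.1, 22.3 and 22.8 CPM in DMSO, 50.6, 49.1 and 50.8 CPM at 0.1 µM, 49.4, 46.9 and 48.1 CPM at 0.5 µM and 36.96, 53.8 and 53.97 CPM at 1 µM. The treated libraries were all above the DMSO libraries and overlapped between doses, and the difference at 1 µM over 0.1 µM was -0.02 ± 0.13 (SE, adjusted p = 0.932), with a 95% interval of -0.29 to 0.24. Pfkfb3, whose product makes the activator of phosphofructokinase, had 481, 547 and 662 CPM in DMSO, 1348, 1200.2 and 1514 CPM at 0.1 µM, 1500.3, 1341 and 1719 CPM at 0.5 µM and 1193, 1364 and 1723 CPM at 1 µM. It changed by 1.44 ± 0.14 (SE, adjusted p = 9.33e-08) at 1 µM with no overlap of the groups. Pfkfb4, the other PFKFB enzyme, went the other way, with 7.76, 8.24 and 7.60 CPM at 1 µM, against 56.03, 46.01 and 46.8 CPM in DMSO, a change of -2.55 ± 0.12 (SE, adjusted p = 9.99e-12).

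The 3 genes that decide the fate of pyruvate fell at each dose, and their median change was -2.79 in log2 at 1 µM. Ldha, the lactate dehydrogenase subunit that favours lactate formation, had 989, 1114 and 764 CPM in DMSO, 449, 604 and 494 CPM at 0.1 µM, 295, 354 and 286 CPM at 0.5 µM and 305, 307 and 278 CPM at 1 µM. Slc16a3, which exports lactate, had 160.3, 196 and 101 CPM in DMSO, 33.02, 58.3 and 44.5 CPM at 0.1 µM, 18.3, 19.2 and 18.4 CPM at 0.5 µM and 19.3, 19.6 and 17.9 CPM at 1 µM. In both genes the 3 libraries at 0.5 µM and the 3 at 1 µM were of nearly the same level, well under the DMSO libraries. The 0.1 µM libraries lay between. The changes at 1 µM were -1.58 ± 0.15 (SE, adjusted p = 5.36e-08) for Ldha and -2.90 ± 0.25 (SE, adjusted p = 8.79e-08) for Slc16a3. Pdk1, a kinase that restrains the entry of pyruvate into mitochondria, changed by -2.79 ± 0.20 (SE, adjusted p = 3.36e-09).

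Hif1a, the oxygen-sensitive HIF subunit, fell at each dose, as did Egln1 and Egln3, which encode prolyl hydroxylases that mark it. Hif1a had 192, 184 and 223 CPM in DMSO, 147, 166 and 137 CPM at 0.1 µM, 128, 107 and 111 CPM at 0.5 µM and 76.1, 104 and 98.4 CPM at 1 µM, and changed by -0.34 ± 0.11 (SE, adjusted p = 0.0213) at 0.1 µM and, at 1 µM, by an amount with a 95% interval of -1.24 to -0.76 (adjusted p = 6.32e-07). The call of Hif1a at 0.1 µM was lost without replicate 3 in DMSO (adjusted p = 0.101) or without replicate 1 (adjusted p = 0.0623) or replicate 3 at 0.1 µM (adjusted p = 0.0853). Egln3, the sensor that HIF itself induces, had 37.8, 54.1 and 11.01 CPM in DMSO, 3.06, 7.24 and 3.83 CPM at 0.1 µM, 2.76, 1.96 and 2.30 CPM at 0.5 µM and 2.51, 1.78 and 1.67 CPM at 1 µM. Its DMSO libraries spread widely, with replicate 3 far below the other two, yet all lay above every treated library, and the change at 1 µM was -4.01 ± 0.65 (SE, adjusted p = 0.000204). Egln1, the main HIF prolyl hydroxylase, changed by -0.52 ± 0.16 (SE, adjusted p = 0.0107), a call lost without replicate 2 in DMSO (adjusted p = 0.0851).

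The other HIF targets split into 4 that fell, 1 that rose and 1 that was not called at 1 µM. Vegfa, the angiogenic growth factor, had 101, 105 and 95.3 CPM in DMSO, 47.3, 40.1 and 50.8 CPM at 0.1 µM, 44.1, 38.6 and 62.1 CPM at 0.5 µM and 29.03, 41.8 and 61.5 CPM at 1 µM. Bnip3, a receptor for the removal of mitochondria, had 72.4, 113 and 48.9 CPM in DMSO, 19.1, 36.95 and 25.5 CPM at 0.1 µM, 18.8, 15.6 and 19.6 CPM at 0.5 µM and 21.1, 17.4 and 20.3 CPM at 1 µM. For both, the DMSO libraries lay above the treated ones, and the changes at 1 µM were -1.09 ± 0.29 (SE, adjusted p = 0.00622) and -1.89 ± 0.35 (SE, adjusted p = 0.000449). The call of Vegfa at 0.5 µM was lost without replicate 2 of that dose (adjusted p = 0.0531). P4ha1, a subunit of the hydroxylase that matures collagen, changed by -1.74 ± 0.16 (SE, adjusted p = 4.96e-08), and Ero1l, an oxidase of protein folding in the endoplasmic reticulum, by -1.33 ± 0.22 (SE, adjusted p = 8.84e-05).

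Ndrg1, a stress-responsive gene induced by low oxygen, had the largest rise. It had 122, 166 and 111 CPM in DMSO, 319, 264 and 241 CPM at 0.1 µM, 459, 501 and 419 CPM at 0.5 µM and 543, 513 and 440.0 CPM at 1 µM, so that the groups stood in order of dose and none but 0.5 µM and 1 µM overlapped. The change was 2.02 ± 0.15 (SE, adjusted p = 3.52e-09) at 1 µM. Adm, which encodes the peptide hormone adrenomedullin, had 3.53, 3.09 and 3.69 CPM at 1 µM, against 2.42, 2.82 and 1.94 CPM in DMSO, with a difference of 0.62 ± 0.27 (SE, adjusted p = 0.062). It passed at 1 µM with DESeq2 (adjusted p = 0.00655), with only the groups compared in the fit (adjusted p = 0.0431) and with the replicate number as a block (adjusted p = 0.0416).

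Many of these genes were lower still at 1 µM than at 0.1 µM. Between these doses 17 of the 33 genes were lower at 1 µM and 1 was higher (11.9% and 6.93% of all genes), with a median of -0.54 in log2 against 0.00 over all genes. Aldoc (-1.61 ± 0.18 SE, adjusted p = 7.34e-06), Pfkl (-1.27 ± 0.19 SE, adjusted p = 0.000177) and Slc16a3 (-1.22 ± 0.24 SE, adjusted p = 0.00216) had the largest further falls. Hif1a differed by -0.66 ± 0.11 (SE, adjusted p = 0.000459), and Ndrg1 was the gene that was higher, by 0.90 ± 0.15 (SE, adjusted p = 0.000313). Of the 9 HIF-side genes 2 were lower, and Vegfa (-0.03 ± 0.29 SE, adjusted p = 0.964, 95% interval -0.66 to 0.60) and Bnip3 (-0.43 ± 0.35 SE, adjusted p = 0.44, 95% interval -1.18 to 0.32) did not pass. The calls of P4ha1, Slc2a6 and Tpi1 were lost without single libraries (highest adjusted p = 0.126, 0.110 and 0.0652). All 12 macrophage, 13 of 15 cell cycle and 6 of 11 neutrophil markers were also lower at 1 µM than at 0.1 µM, with macrophage sums of 3965 to 5209 CPM against 11690.0 to 12500.0 CPM. The 9 cDC1 markers summed to more, 2359 to 2489 CPM against 1712 to 1815 CPM. Most of that difference was Irf8, with means of 1984 and 1411 CPM. Cd24a, Batf3 and Itgae also averaged higher at 1 µM, whereas Xcr1, Clec9a, Cadm1, Tlr3 and Wdfy4 averaged lower. The part of these lists in the differences was not tested.

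The make-up of enzyme families differed with them. It was compared per exon length (CPM per kilobase) and not tested. Hk1 made up 66.4% ± 4.48 of the hexokinase level at 1 µM, against 22.9% ± 2.81 in DMSO (SD, n = 3 each). The share of Hk2 was 11.9% ± 1.79 at 1 µM, against 32.4% ± 5.23 in DMSO, and that of Hk3 was 21.7% ± 3.16 against 44.7% ± 6.08. Pfkp, which was not called, held 64.0% ± 1.97 of the phosphofructokinase level at 1 µM, against 25.6% ± 1.08 in DMSO, with Pfkl at 32.95% ± 2.47 against 70.8% ± 1.62. Eno2 reached 19.0% ± 3.61 of the enolase level at 1 µM, against 2.89% ± 0.846 in DMSO. The share of Pfkfb4 in the PFKFB pair was 0.869% ± 0.168 at 1 µM, against 12.2% ± 2.77 in DMSO and 59.7% ± 4.06 in GM t0.

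**Figure D4:**
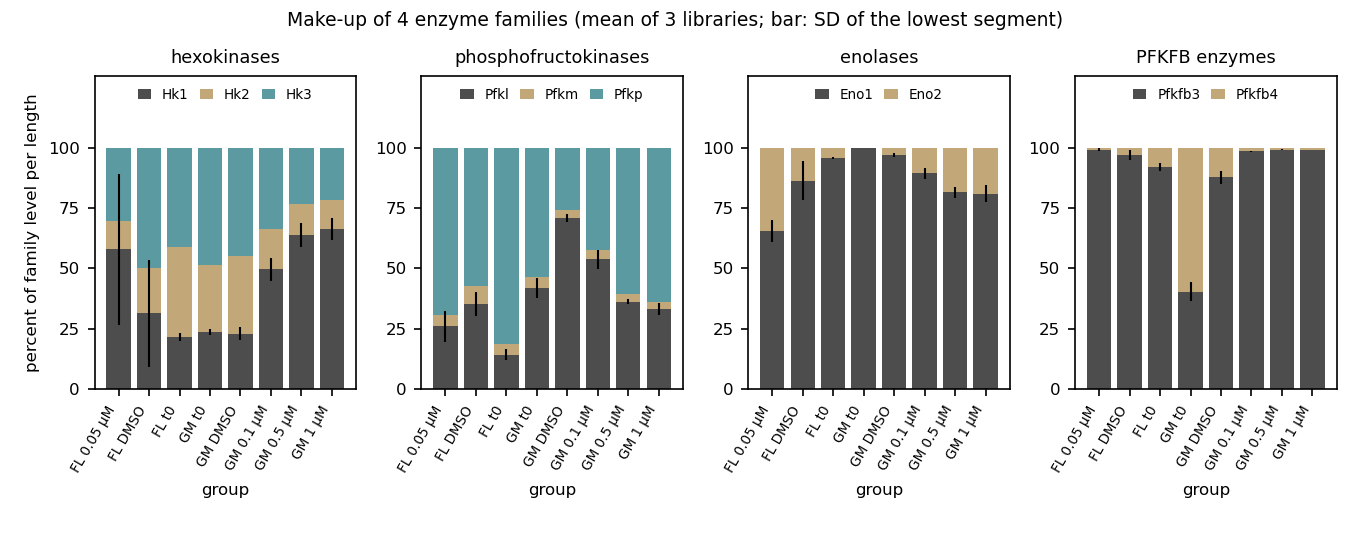
Make-up of the hexokinases, phosphofructokinases, enolases and PFKFB enzymes in each group, as the mean percent of the family's level per exon length over 3 libraries (bar: SD of the lowest segment). In GM cultures the Hk1 share is 66.4% at 1 µM and 22.9% in DMSO, that of Pfkl is 32.95% at 1 µM and 70.8% in DMSO, and Pfkfb4 holds 59.7% of its pair in GM t0 and 12.2% or less in the other groups.

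Culture for 24 h in DMSO changed a smaller set in GM cultures. Against t0, 7 of the 33 genes rose and 8 fell (27.2% and 20.3% of all genes), with a median log2 change of -0.01 against 0.09 over all genes. The largest rises were those of Adm, Pfkfb3 and Eno2. Adm had 2.42, 2.82 and 1.94 CPM after 24 h in DMSO, against 0.135, 0.313 and 0.0488 CPM at t0, with few counts at t0, and rose by 3.84 ± 0.35 (SE, adjusted p = 6.84e-08) in log2. Pfkfb3 had 481, 547 and 662 CPM after 24 h in DMSO, against 40.9, 44.8 and 43.6 CPM at t0, a change of 3.70 ± 0.15 (SE, adjusted p = 3.20e-12). Eno2 had 18.1, 22.3 and 22.8 CPM after 24 h in DMSO, against 2.06, 1.65 and 2.23 CPM at t0, a change of 3.40 ± 0.15 (SE, adjusted p = 5.88e-12). In all 3 genes the groups lay far apart. Vegfa had 101, 105 and 95.3 CPM after 24 h in DMSO, against 56.98, 23.5 and 31.7 CPM at t0, a change of 1.42 ± 0.30 (SE, adjusted p = 0.00127), and Ndrg1 changed by 0.60 ± 0.15 (SE, adjusted p = 0.00281), Slc2a6 by 0.63 ± 0.10 (SE, adjusted p = 4.39e-05) and Pfkl by 0.49 ± 0.18 (SE, adjusted p = 0.0386). The call of Pfkl was lost with another scaling (RLE, adjusted p = 0.0556), with only the groups compared (adjusted p = 0.0814) and without any of 4 single libraries (highest adjusted p = 0.225).

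The falls over 24 h in DMSO were smaller. Both the 7 rises and the 8 falls among the 33 genes were near the shares of all genes (27.2% and 20.3%). Pfkp had 128, 148 and 98.8 CPM after 24 h in DMSO, against 322, 316 and 311 CPM at t0, a change of -1.35 ± 0.11 (SE, adjusted p = 2.23e-08). Slc2a3 had 3.32, 3.23 and 4.91 CPM after 24 h in DMSO, against 6.73, 8.38 and 8.65 CPM at t0, a change of -1.07 ± 0.33 (SE, adjusted p = 0.0133), which was lost without replicate 1 (adjusted p = 0.0541) or replicate 2 in DMSO (adjusted p = 0.0573). Pfkm had 4.46, 4.63 and 3.84 CPM after 24 h in DMSO, against 6.36, 6.49 and 6.96 CPM at t0, a change of -0.62 ± 0.19 (SE, adjusted p = 0.0101). The groups did not overlap in any of these 3 genes. The others that fell were Eno1 (-0.58), Ldha (-0.57), Pgam1 (-0.56), Aldoc (-0.51) and Pkm (-0.31), and the calls of Aldoc and Pkm were lost without a single library (highest adjusted p = 0.117 for Aldoc without replicate 1 at t0 and 0.187 for Pkm without replicate 3 in DMSO). The HIF subunit and its sensors did not pass, with differences of 0.23 ± 0.11 for Hif1a, 0.19 ± 0.16 for Egln1 and 0.42 ± 0.54 for Egln3 (SE). Of 12 macrophage markers 9 rose and 2 fell. All 15 cell cycle markers fell over the same 24 h, with sums of 373 to 468 CPM in DMSO against 1802 to 2149 CPM at t0, and the part of both lists in these changes was not tested.

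In FL cultures 2 of the 33 genes passed at 0.05 µM AZD5582 against DMSO, both higher (1.62% of all genes were higher and 1.28% lower), with a median of -0.29 in log2 against -0.05 over all genes. Ndrg1 had 327, 266 and 308 CPM at 0.05 µM, against 120.4, 88.4 and 98.1 CPM in DMSO, each treated library above every DMSO library, and changed by 1.55 ± 0.19 (SE, adjusted p = 0.01). Eno2 had 112, 80.8 and 76.5 CPM at 0.05 µM, against 47.5, 19.5 and 25.2 CPM in DMSO, also with no overlap, and changed by 1.54 ± 0.33 (SE, adjusted p = 0.0456). Since same-numbered FL libraries deviate together, a fit with the culture as a block was also made. It called 5 genes (3.69% of all genes higher and 3.19% lower). Ndrg1 and Eno2 rose in it, by 1.56 ± 0.12 (SE, adjusted p = 0.00286) and 1.59 ± 0.29 (SE, adjusted p = 0.0244), and Slc16a3 changed by -1.11 ± 0.19 (SE, adjusted p = 0.022), Pfkfb4 by -1.29 ± 0.29 (SE, adjusted p = 0.0423) and Vegfa by -1.46 ± 0.29 (SE, adjusted p = 0.0303). With no block these 3 had adjusted p-values of 0.0515, 0.156 and 0.0594. Without culture 91, 8 genes passed, 4 in each direction (8.03% of all genes higher and 6.05% lower). Those added to Ndrg1 and Eno2 were Adm (1.72, adjusted p = 0.0446) and Pfkfb3, which rose, and Aldoc (-1.88, adjusted p = 0.00202), Pdk1 (-1.43, adjusted p = 0.00324), Vegfa (-1.46, adjusted p = 0.0232) and Hk2, which fell. With no block, the call of Ndrg1 was lost without culture 95 in either condition (highest adjusted p = 0.0724). That of Eno2 was lost without any of 5 single libraries (highest adjusted p = 0.189), and both were lost with only these 2 groups in the fit (adjusted p = 0.0665 and 0.148).

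Culture 91, the first library in each FL group, lay apart from cultures 94 and 95 in several genes. Hk2 had 5.33, 30.8 and 17.8 CPM at 0.05 µM, against 7.86, 49.4 and 45.1 CPM in DMSO, with culture 91 the lowest in each condition. Hk3 had 6.75, 65.2 and 19.2 CPM at 0.05 µM, against 23.3, 89.4 and 53.8 CPM in DMSO. It was graded rather than set apart in culture 91, with culture 91 lowest, culture 95 between and culture 94 highest, as also at t0. Ldha had 143, 309.6 and 221 CPM at 0.05 µM, against 134, 452 and 409.6 CPM in DMSO, where culture 91 hardly differed between the conditions and both other cultures were lower at 0.05 µM. Pfkfb3 had 3291, 1472 and 2129 CPM at 0.05 µM, against 3198, 745 and 961 CPM in DMSO, and culture 91 was the highest in both. Slc2a1 had 19.9, 23.98 and 25.2 CPM at 0.05 µM, against 21.6, 30.4 and 32.7 CPM in DMSO, overlapping, and Gapdh had 880.4, 941 and 997 CPM at 0.05 µM, against 857, 861 and 877 CPM in DMSO, not overlapping. Within each culture Hk2, Hk3 and Slc2a1 were lower at 0.05 µM than in DMSO, and Pfkfb3 and Gapdh were higher. In the fit with no block, the differences were -0.93 ± 0.70 (SE, adjusted p = 0.549) for Hk2 and -0.87 ± 0.78 (SE, adjusted p = 0.617) for Hk3. Those of Ldha and Pfkfb3 were -0.57 ± 0.43 (SE, adjusted p = 0.554) and 0.48 ± 0.53 (SE, adjusted p = 0.69). None of these genes was called in that fit or with the culture as a block. Without culture 91 Pfkfb3 (1.12, adjusted p = 0.0138) and Hk2 (-0.92, adjusted p = 0.0380) passed, whereas Ldha (-0.67, adjusted p = 0.0501) and Hk3 (-0.74, adjusted p = 0.498) did not. For Slc2a1 and Gapdh the differences with every culture and no block were -0.30 ± 0.19 (SE, adjusted p = 0.482) and 0.12 ± 0.17 (SE, adjusted p = 0.772), with 95% intervals of -0.74 to 0.14 and -0.26 to 0.49.

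Slc16a3, Vegfa and Hif1a averaged lower at 0.05 µM than in DMSO in FL cultures, and none of these was called with no block. Their groups did not overlap, and neither did those of Aldoa and Pdk1, also lower. Nor did those of Pfkp, Ndrg1, Eno2 and Gapdh, which were higher. The share of all genes whose groups stood apart was not counted, so the lack of overlap is a description only. Slc16a3 had 10.8, 19.04 and 10.5 CPM at 0.05 µM, against 29.8, 29.1 and 25.6 CPM in DMSO, and Vegfa had 9.49, 6.55 and 5.11 CPM at 0.05 µM, against 23.8, 15.5 and 17.3 CPM in DMSO. The first of these exports lactate, and the second is the angiogenic growth factor. Hif1a had 80.98, 65.9 and 87.7 CPM at 0.05 µM, against 128, 102 and 93.3 CPM in DMSO. In the fit with no block it differed by -0.47 ± 0.17 (SE, adjusted p = 0.201). Egln3 had 3.10, 10.1 and 3.17 CPM at 0.05 µM, against 1.74, 13.2 and 6.39 CPM in DMSO, and Bnip3 had 11.9, 15.9 and 11.6 CPM at 0.05 µM, against 13.8, 22.1 and 18.6 CPM in DMSO. Both overlapped, with differences of -0.39 ± 0.78 (SE, adjusted p = 0.846) and -0.47 ± 0.22 (SE, adjusted p = 0.315) in the same fit. With the culture as a block, Hif1a, Egln3 and Bnip3 were not called either. Of 12 macrophage markers 4 fell and 1 rose at 0.05 µM, with sums of 329 to 742 CPM against 909.7 to 1533 CPM in DMSO, and the 11 neutrophil markers summed to 176 to 3550.0 CPM at 0.05 µM against 2028 to 9797 CPM in DMSO. Their part in these differences was not tested.

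Over 24 h in DMSO, 1 of the 33 genes rose in FL cultures and 5 fell (4.96% and 5.18% of all genes), with a median of -0.28 in log2 against 0.03 over all genes. Vegfa had 23.8, 15.5 and 17.3 CPM after 24 h in DMSO, against 4.49, 7.15 and 3.74 CPM at t0, and rose by 1.89 ± 0.33 (SE, adjusted p = 0.0191). Pfkp had 104, 80.4 and 91.9 CPM after 24 h in DMSO, against 486, 342 and 391 CPM at t0, and changed by -2.13 ± 0.32 (SE, adjusted p = 0.0156). The groups did not overlap in either gene. Slc2a1 changed by -1.25 ± 0.20 (SE, adjusted p = 0.016), P4ha1 by -1.24 ± 0.32 (SE, adjusted p = 0.0464), Pgam1 by -1.01 ± 0.15 (SE, adjusted p = 0.0154) and Eno1 by -0.78 ± 0.19 (SE, adjusted p = 0.0397). With the culture as a block 11 genes passed, 2 higher and 9 lower (9.23% and 10.2% of all genes). The added ones were Pfkfb3 (1.65 ± 0.43 SE, adjusted p = 0.0382), which rose, and Ldha (-1.42 ± 0.34 SE, adjusted p = 0.0314), Pkm (-0.89 ± 0.18 SE, adjusted p = 0.0219), Tpi1 (-0.71 ± 0.18 SE, adjusted p = 0.0352) and Pgk1 (-0.65 ± 0.12 SE, adjusted p = 0.0189), which fell. The 6 calls made with no block were lost without culture 91 or without culture 95 at t0, where Pfkp had adjusted p-values of 0.0690 and 0.0595. With culture 91 left out of all FL groups 9 genes passed, 2 higher and 7 lower (4.39% and 6.15% of all genes), and P4ha1 did not (adjusted p = 0.0533). The 15 cell cycle markers summed to 267 to 1103 CPM in DMSO against 1519 to 1621 CPM at t0, and their part in these changes was not tested.

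Before any treatment, FL cultures held less of most of these transcripts than GM cultures. At t0, 22 of the 33 were lower in FL cultures and 4 were higher (17.5% and 23.4% of all genes), with a median difference of -0.94 in log2 against 0.09 over all genes. The largest differences on the low side were in HIF targets and lactate export. Vegfa had 4.49, 7.15 and 3.74 CPM in FL cultures, against 56.98, 23.5 and 31.7 CPM in GM cultures, a difference of -2.86 ± 0.34 (SE, adjusted p = 1.10e-06). Bnip3 had 14.3, 17.4 and 15.05 CPM in FL cultures, against 118, 57.3 and 53.9 CPM in GM cultures, a difference of -2.29 ± 0.31 (SE, adjusted p = 6.05e-06). Slc16a3 had 32.3, 34.5 and 29.8 CPM in FL cultures, against 196, 146 and 116 CPM in GM cultures, a difference of -2.25 ± 0.25 (SE, adjusted p = 5.88e-07). Each FL library lay below each GM library in these 3 genes. Egln3 had 2.44, 9.81 and 4.86 CPM in FL cultures, against 45.5, 18.5 and 12.8 CPM in GM cultures, with wide spreads and a difference of -2.17 ± 0.68 (SE, adjusted p = 0.0154), lost without replicate 1 of GM t0 (adjusted p = 0.117). Hif1a had 109, 99.3 and 95.8 CPM in FL cultures, against 167, 174 and 166 CPM in GM cultures, a difference of -0.74 ± 0.14 (SE, adjusted p = 0.000317). Other calls on the low side that a single left-out library ended were those of Aldoc, Gpi1, Hk1, Pfkfb4 and Pkm (highest adjusted p = 0.0990, 0.101, 0.0525, 0.0709 and 0.0876).

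Slc2a1 and several core enzymes were lower in FL cultures by smaller amounts. Slc2a1 had 78.6, 60.96 and 63.1 CPM in FL cultures, against 163, 149 and 125 CPM in GM cultures, a difference of -1.10 ± 0.19 (SE, adjusted p = 0.000115). Gapdh had 919, 1154 and 1080.4 CPM in FL cultures, against 2259.9, 2051 and 1751 CPM in GM cultures, a difference of -0.94 ± 0.16 (SE, adjusted p = 8.87e-05). Ldha had 784, 763 and 803 CPM in FL cultures, against 1630.2, 1335 and 1248 CPM in GM cultures, with no overlap, and its difference of -0.84 ± 0.31 (SE, adjusted p = 0.034) was lost without any of 5 single libraries (highest adjusted p = 0.115) and with no filter on low counts (adjusted p = 0.0624). Hk2 had 55.8, 60.8 and 57.99 CPM in FL cultures, against 84.2, 75.5 and 82.4 CPM in GM cultures, and Hk3 had 25.1, 66.3 and 38.3 CPM in FL cultures, against 81.8, 94.1 and 87.5 CPM in GM cultures. Neither passed, with differences of -0.47 ± 0.47 (SE, adjusted p = 0.452) and -1.02 ± 0.52 (SE, adjusted p = 0.126) in a model whose spread is shared with the wider FL groups. Fitted on the t0 groups alone both passed, with adjusted p-values of 0.000919 for Hk2 and 0.0244 for Hk3.

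Higher in FL cultures at t0 were Pfkfb3, Eno2, Adm and Slc2a3. Pfkfb3 had 375, 436 and 436 CPM in FL cultures, against 40.9, 44.8 and 43.6 CPM in GM cultures, a difference of 3.27 ± 0.40 (SE, adjusted p = 1.60e-06). Eno2 had 13.8, 18.3 and 16.1 CPM in FL cultures, against 2.06, 1.65 and 2.23 CPM in GM cultures, a difference of 3.02 ± 0.26 (SE, adjusted p = 1.52e-08). Neither gene had overlapping groups. Adm had 0.215, 0.605 and 1.12 CPM in FL cultures, against 0.135, 0.313 and 0.0488 CPM in GM cultures, low levels in both, with a difference of 1.94 ± 0.58 (SE, adjusted p = 0.0106) that was lost without culture 95 (adjusted p = 0.0971) or without replicate 3 of GM t0 (adjusted p = 0.0567). Slc2a3 had 24.9, 25.96 and 21.2 CPM in FL cultures, against 6.73, 8.38 and 8.65 CPM in GM cultures, a difference of 1.60 ± 0.50 (SE, adjusted p = 0.014), lost without replicate 1 of GM t0 (adjusted p = 0.0571). All 12 macrophage markers were lower and 9 of 11 neutrophil markers higher in FL cultures at t0, and their part in these differences was not tested.

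**Figure D5:**
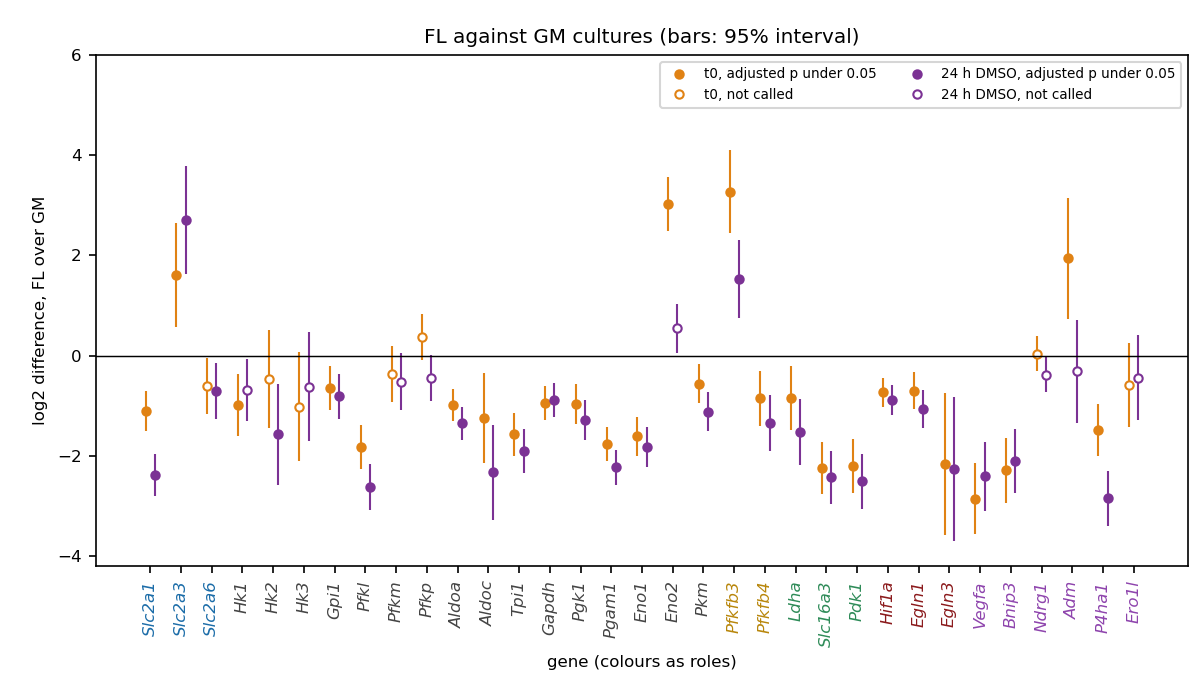
Log2 difference of each gene, FL over GM cultures, at t0 (orange) and after 24 h in DMSO (purple), with 95% intervals, filled where the adjusted p is under 0.05 and open where it is not. At t0 22 filled points lie below 0 and 4 above, and Eno2 and Adm, high at t0 (3.02 and 1.94), are open and nearer 0 after 24 h (0.54 and -0.32).

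After 24 h in DMSO, 23 genes were lower and 2 higher in FL than in GM cultures (21.4% and 20.0% of all genes), with a median of -1.29 against 0.01 over all genes. P4ha1 (-2.85 ± 0.26 SE, adjusted p = 4.55e-08), Pfkl (-2.62 ± 0.22 SE, adjusted p = 1.27e-08) and Pdk1 (-2.51 ± 0.26 SE, adjusted p = 2.32e-07) were lowest, and Slc2a3 (2.71 ± 0.52 SE, adjusted p = 0.000324) and Pfkfb3 (1.54 ± 0.37 SE, adjusted p = 0.00251) were higher. Eno2 and Adm did not pass, at 0.54 ± 0.24 (SE, adjusted p = 0.0701) and -0.32 ± 0.49 (SE, adjusted p = 0.638). Eno2 passed with DESeq2 (adjusted p = 0.0312), with RLE scaling (adjusted p = 0.0389) and without culture 94 or culture 95 in DMSO (adjusted p = 0.00805 and 0.0486). The calls of Egln3 and Slc2a6 were lost without single libraries (highest adjusted p = 0.0631 and 0.164), and with only these groups in the fit those of Pfkfb3 (adjusted p = 0.0783), Ldha (0.0582), Hk2 (0.122), Gpi1 (0.104), Egln3 (0.0918) and Slc2a6 (0.255) were lost. Without culture 91, 29 genes passed, 27 of them lower (46.0% of all genes passed in either direction), with Hk1, Pfkp, Ndrg1 and Adm added on the low side. All 12 macrophage markers were lower in FL DMSO, with sums of 909.7 to 1533 CPM against 29010.0 to 35480.0 CPM in GM DMSO. Of the others, 9 of 11 neutrophil, 7 of 8 tested mast cell and basophil and 5 of 15 cell cycle markers were higher, and the part of these cells in the differences was not tested.

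The change over 24 h in DMSO differed between culture types for 3 genes, all more negative in FL cultures (3.96% of all genes more negative, 0.881% more positive). The FL change minus the GM change was -2.48 ± 0.34 (SE, adjusted p = 0.000263) for Eno2, -1.36 ± 0.35 (SE, adjusted p = 0.0268) for P4ha1 and -1.28 ± 0.27 (SE, adjusted p = 0.00907) for Slc2a1. With the culture as a block 5 genes passed (7.62% of all genes more negative and 2.14% more positive), the added ones being Pfkfb3 (-2.05 ± 0.40 SE, adjusted p = 0.00346) and Pfkp (-0.78 ± 0.21 SE, adjusted p = 0.0221). Without culture 91, 7 passed, all more negative (10.6% of all genes more negative, 4.25% more positive), with Adm (-3.43), Pfkfb3 (-2.74), Pfkp (-0.76) and Slc2a6 (-0.78) added. The response to AZD5582 was less negative in FL cultures at 0.05 µM than in GM cultures at 0.1 µM for 2 genes (0.967% of all genes more positive, 0.707% more negative), Pfkl (1.27 ± 0.29 SE, adjusted p = 0.0289) and P4ha1 (1.48 ± 0.35 SE, adjusted p = 0.0335). With the block 6 passed, all more positive (2.47% of all genes more positive, 1.80% more negative), and Slc2a1 (0.94 ± 0.22 SE, adjusted p = 0.0203), Pfkp (0.88 ± 0.21 SE, adjusted p = 0.0205), Tpi1 (1.02 ± 0.26 SE, adjusted p = 0.0307) and Egln3 (2.48 ± 0.66 SE, adjusted p = 0.0471) were added. Without culture 91, 2 passed (2.76% of all genes more positive, 1.82% more negative), P4ha1 and Slc2a6 (0.95, adjusted p = 0.00555), and Pfkl did not (0.98, adjusted p = 0.0722). The calls of P4ha1 in both differences and of Pfkl in the second were lost without single libraries (highest adjusted p = 0.0938, 0.104 and 0.0969). The doses of the culture types differ, so this difference joins dose and culture type. For Ndrg1 and Eno2, which did not pass, the FL response minus the GM response was 0.51 ± 0.24 (SE, adjusted p = 0.37) and 0.29 ± 0.33 (SE, adjusted p = 0.781), with 95% intervals of 0.01 to 1.00 and -0.39 to 0.98.

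Other listed genes of the same pathways moved in both directions in GM cultures at 1 µM. Of 25 further glycolysis and pyruvate genes tested (29 listed), 10 fell and 5 rose, with a median log2 change of -0.28, where 28.2% of all genes fell and 26.9% rose. Ldhb, the other lactate dehydrogenase subunit, changed by -1.97 ± 0.14 (SE, adjusted p = 1.94e-09), and Slc16a7, a monocarboxylate transporter, by -2.62 ± 0.17 (SE, adjusted p = 4.93e-10). Gpd2, the mitochondrial glycerol phosphate dehydrogenase, rose by 1.77 ± 0.09 (SE, adjusted p = 4.04e-11), and Pcx, the pyruvate carboxylase, by 1.00 ± 0.16 (SE, adjusted p = 2.67e-05). Of 30 further HIF pathway genes tested (32 listed), 12 fell and 12 rose, with a median of -0.14. Epas1, the alternative HIF alpha subunit, changed by -1.16 ± 0.13 (SE, adjusted p = 8.29e-07), Arnt, the constant partner of HIF alpha, by -0.29 ± 0.08 (SE, adjusted p = 0.00609), and Vhl, which targets hydroxylated HIF alpha for destruction, by 0.63 ± 0.09 (SE, adjusted p = 1.19e-05). The HIF target Mxi1 rose, by 1.62 ± 0.11 (SE, adjusted p = 1.37e-09). Of the 10 genes of the pentose phosphate pathway, which branches from glycolysis, 7 fell and 2 rose, among them Pgd (-1.34 ± 0.11 SE, adjusted p = 1.56e-08) and Prps1 (1.97 ± 0.17 SE, adjusted p = 3.72e-08). In FL cultures at 0.05 µM, 1 of the 24 tested genes of the first list fell, against 1.28% of all genes, namely Eno3 (-1.18 ± 0.25 SE, adjusted p = 0.0441). The median log2 change there was 0.16 for the 30 HIF pathway genes tested and -0.45 for the 10 pentose phosphate genes.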

How the data were processed

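The deposited files hold raw counts of reads per gene, 1 file per library, made by the authors with STAR 2.7.3a and HTSeq 0.12.4 on GRCm39, per the submitters' processing notes. The notes also list DESeq2 1.30.1. Strand setting and annotation: not given in the sources used here. Lines that name no gene held 10.98% to 16.4% of a file's counts and were left out. Gene counts were 27012555 to 85820558 per library. Symbols came from a GRCm38 gene annotation, which named 52081 of the 55414 gene IDs. Aldoa had 2 IDs, and the one with nearly all counts was used.

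Counts were tested with edgeR 4.0.16 (R 4.3.3, limma 3.58.1): TMM scaling, filterByExpr, a robust quasi-likelihood fit, and Benjamini-Hochberg adjustment over all genes tested. GM comparisons used the 15 GM libraries (16152 genes), FL comparisons the 9 FL libraries (15961 genes), and comparisons of culture types all 24 (17262 genes). Intervals are 95%. Calls needed an adjusted p under 0.05. Fits were tested on simulated counts. Same-numbered FL libraries deviated together (correlations of deviations from the group means 0.14 to 0.69), so the culture was used as a block beside the FL results. Alternatives were RLE scaling, no filter, DESeq2 1.42.0, only the groups compared, the block, and each library left out. Leaving out culture 91 was added after seeing the data. The members and lists were chosen with earlier results of these data known. Values per library are printed for a fixed panel of 11 genes and for the 3 largest called rises and falls of the main comparisons, and a few other genes were given theirs after their values were seen.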

Additional observations from a re-analysis of the deposited data

Results flagged for a closer look

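For 3 genes the change over 24 h in DMSO differed between culture types by a test of the difference itself (3.96% of all genes more negative in FL cultures, 0.881% more positive). The FL change minus the GM change was -2.48 in log2 for Eno2, -1.36 for P4ha1 and -1.28 for Slc2a1. With only the groups compared in the fit, P4ha1 (adjusted p = 0.122) and Slc2a1 (adjusted p = 0.0818) did not pass. For 2 genes the response to AZD5582 differed between culture types, in log2 by 1.48 for P4ha1 and 1.27 for Pfkl (FL cultures minus GM cultures). Of all genes, 0.967% were more positive and 0.707% more negative. Both calls were lost without single libraries and with only the groups compared (adjusted p = 0.191 and 0.266). The doses were not matched, being 0.05 µM in FL and 0.1 µM in GM cultures.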

How the results depend on the processing

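No member changed direction while called in any alternative. Of the changes of single members, 4266 kept their side of the threshold, 121 gained a call and 134 lost it. In GM cultures, and between culture types at t0 and in DMSO, the counts of members called stayed within 1.5 times of those reported under each alternative run. The counts that rest on FL cultures after 24 h did not. For 0.05 µM AZD5582 against DMSO, 2 were called, against 6 with DESeq2, 0 with only the groups compared, 5 with the replicate block, 8 without culture 91, and 0 to 6 with 1 library left out. For DMSO against t0, 6 were called, against 13 with DESeq2, 11 with the block and 0 to 8 with 1 library left out. For the difference in the change over 24 h, 3 were called, against 5 with DESeq2, 1 with only the groups compared, 5 with the block, 7 without culture 91 and 2 to 5 with 1 library left out. For the difference in response, 2 were called, against 4 with DESeq2, 1 with no filter, 0 with only the groups compared, 6 with the block and 0 to 4 with 1 library left out. The cause was not tested. In GM cultures same-numbered libraries deviated together only weakly, with correlations of 0.01 to 0.23 and a median of 0.08. The median was -0.04 for GM libraries of different numbers and groups. The block kept each GM count within 1.5 times. RLE scaling moved the median of all genes by at most 0.09 in log2. Each group has 3 libraries, which limits the precision of every difference.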
